A study of Mus musculus with 24 samples.

Results

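The cytosolic translation factors were followed across all 6 groups of a mouse liver tumor study of Chop, the stress-induced transcription factor also called C/EBP homologous protein and encoded by Ddit3. Members were chosen by gene symbol alone: every gene whose symbol begins with Eif1 to Eif6, Eef1 or Eef2, together with Tpt1, Etf1, Gspt1, Pabpc1 and the 3 Eif4ebp genes, and without the Eif2ak kinases. This rule took 58 of the 16593 named genes on the array, covered by 97 probes. Of these genes, 50 had a probe detected on at least 2 of the 24 arrays and were tested, and 47 were detected on all 24. Eef1a2, Eef1akmt2, Eif1ax, Eif3e, Eif3m, Eif4e1b, Eif5a2 and Eif5b fell below that limit and have no level here. Eif1, Eif2s1, Eif4g1, Eif4g3 and Eif3j2 were not analysed here.

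RNA was taken from large tumors of Chop-/- mice (n = 2) and wild-type mice (n = 3) given diethylnitrosamine (DEN), from livers of DEN-treated Chop-/- mice (n = 7) and wild-type mice (n = 6), and from livers of Chop-/- mice (n = 3) and wild-type mice (n = 3) given phosphate-buffered saline (PBS). DEN is a carcinogen that hepatocytes convert to a DNA-alkylating agent; a single 25 mg/kg dose, or PBS, was injected at 15 days of age, and all mice were male and were killed at 9 months. The Chop-/- animals carried a constitutive deletion of most of the Chop reading frame in every tissue and had been backcrossed to C57BL/6J, the strain of the wild-type mice. The DEN livers mixed nodules with uninvolved tissue, so they are a carcinogen-exposed liver and not a pure non-tumor tissue. No source used here tells which tumor and liver came from the same animal, so the p-values below rest on the spread between arrays of a group. Because these are bulk samples, fewer cells of a type and less RNA per cell cannot be told apart.

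Cytosolic translation begins when eIF2 brings the initiator tRNA to the small ribosomal subunit, on which eIF3 acts as a scaffold, and when eIF4F, made of the cap-binding protein eIF4E, the helicase eIF4A and the scaffold eIF4G, recruits the mRNA. The eIF4E-binding proteins compete with eIF4G for eIF4E until the kinase mTORC1 phosphorylates them, and eIF2B reloads eIF2 with GTP until stress kinases phosphorylate eIF2 and block the exchange. Elongation runs on eEF1A, its exchange complex eEF1B, and eEF2. Many of these mRNAs, like those of ribosomal proteins, start with a terminal oligopyrimidine (TOP) tract and are translated under mTORC1 control. Chop lies downstream of eIF2 phosphorylation.

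The array labels were checked on the deleted gene. Ddit3 averaged a log2 signal of 4.55 in Chop-/- tumors and 8.64 in wild-type tumors, 4.46 in Chop-/- DEN livers and 6.51 in wild-type DEN livers, and 4.62 in Chop-/- PBS livers and 6.45 in wild-type PBS livers. It was detected on no Chop-/- array and on every wild-type array. All 8 hepatocyte markers were measured and their summed signal ranged from 91477.9 to 122789. Between 8953 and 11248 probes were detected per array. The 2 Chop-/- tumors stood apart from each other and from the rest: they correlated at 0.955, against 0.971 to 0.993 within the other groups. Chop-/- tumor C_24 (the letter gives 1 of 3 sets of 8 arrays) had a summed neutrophil signal of 3319.2 over 3 of 4 markers, against 260.2 in Chop-/- tumor B_16 and 104.5 to 349.1 on the other arrays, and the 2 measured erythroid markers summed to 33925 and 17090.5 in those tumors, against 5104.5 to 14015.8 elsewhere. Endothelial markers (5 of 6 measured) were lowest on the same arrays, at 1790.6 in C_24 and 3295.9 in B_16, against 3761.9 to 7625.7 elsewhere, and the stellate cell and fibroblast markers summed to 5005.3 and 4025.4, against 4575.4 to 9142.5. The Chop-/- DEN liver B_15 resembled the wild-type tumors (mean correlation 0.979) slightly more than the wild-type PBS livers (0.974). The part of these differences in the results below was not tested.

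Promoter sequence was available in RefSeq (build GRCm38.p6) for 43 of the 58 member genes. The windows printed here run from 60 bases before to 20 bases from the annotated start, for 5 members that rose in Chop-/- tumors and 2 that fell (Eif2b4 and Eif4ebp2), picked after their values were seen, so that their start regions can be compared. Eif3h and Eif6, which also rose, had no entry. Capitals mark matches on either strand to CCGGAAGT (the ETS-family consensus), TGACG (the half-site of CREB and ATF factors), TGACGTCA (the full site of those factors) or CACGTG (the E-box bound by Myc and related factors).
Eef1b2, chr1:63176771-63176850, plus strand: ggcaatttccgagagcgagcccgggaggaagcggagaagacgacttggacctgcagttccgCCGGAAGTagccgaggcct
Tpt1, chr14:75845196-75845275, plus strand: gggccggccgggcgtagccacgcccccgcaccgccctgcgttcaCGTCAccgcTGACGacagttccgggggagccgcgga
Eif4a1, chr11:69672404-69672483, minus strand: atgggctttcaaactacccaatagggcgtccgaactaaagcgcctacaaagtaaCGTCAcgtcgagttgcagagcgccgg
Eef2, chr10:81176571-81176650, plus strand: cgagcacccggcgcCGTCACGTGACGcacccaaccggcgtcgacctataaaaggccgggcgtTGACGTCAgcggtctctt
Eif4e2, chr1:87213851-87213930, plus strand, the first of 3 listed starts: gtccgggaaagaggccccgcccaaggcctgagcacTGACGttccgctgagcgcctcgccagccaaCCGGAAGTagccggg
Eif2b4, chr5:31193120-31193199, minus strand: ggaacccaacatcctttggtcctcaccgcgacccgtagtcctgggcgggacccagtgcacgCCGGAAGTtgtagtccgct
Eif4ebp2, chr10:61452650-61452729, minus strand: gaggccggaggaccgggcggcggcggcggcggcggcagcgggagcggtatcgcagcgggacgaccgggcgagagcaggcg

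Over the 300-base windows (250 before the start and 50 from it), a gene was counted once if any listed start held the motif. CCGGAAGT stood in 8 of 43 member genes (18.6%), against 4.31% of the 27025 RefSeq genes listed. CACGTG stood in 12 of 43 (27.9%), against 8.09%. The background was every listed gene, not only the genes tested here. TGACG stood in 23 of 43 (53.5%), against 23% of all listed genes. TGACGTCA, which contains TGACG and overlaps it at Eef2, stood in 1 of 43 (2.33%), against 2.03%. The longer motifs of the stress response factors stood near or below their share of all listed genes, unlike the short TGACG. TGATGNAA, a composite CCAAT enhancer-binding and ATF element, stood in 2 of 43 (4.65%), against 4.51%. TGCAATCCC, a composite element at which Chop was described, stood in 0 of 43, against 0.237%. A pyrimidine tract at the start (a C followed by at least 4 C or T, beginning within 10 bases of the annotated start) stood in 13 of 43 (30.2%), against 33.3%, a count that depends on the exact annotated base. The ETS motif stands at the start of Eef1b2 and Eif4e2, which rose in Chop-/- tumors, and of Eif2b4, which fell. Whether it goes with direction was not tested. Of the 16 members that rose in both Chop-/- tumor comparisons, 9 had a promoter; 2 of these held CCGGAAGT (22.2%), 4 held TGACG (44.4%) and 3 held CACGTG (33.3%), against 17.9%, 64.3% and 28.6% of the 28 other tested members.

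All tests below are from limma with Benjamini-Hochberg adjustment over 8969 genes, and a member is said to rise or fall when its adjusted p was under 0.05. Changes are differences in log2 signal, given with their standard error (SE). A level is the log2 signal of the brightest detected probe of a gene and cannot be compared between genes.

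In Chop-/- tumors set against Chop-/- DEN livers, 18 of the 50 tested factors rose and 5 fell. Across all genes 19.1% rose and 20.3% fell in this comparison, against 36% and 10% of the factors. The median change was 0.29 over the factors and -0.05 over all genes. Against Chop-/- PBS livers, 21 factors rose and 3 fell (42% and 6%), while 21.1% of all genes rose and 22.4% fell, and the median change was 0.41 over the factors and -0.03 over all genes. In wild-type tumors the list moved little: 3 factors rose and 1 fell against wild-type DEN livers, where 12.1% of all genes rose and 10.2% fell, and 4 rose and 1 fell against wild-type PBS livers, where 10.8% rose and 8.42% fell. Its median change there was 0.02 in both comparisons, with all genes at -0.01 against DEN livers and within 0.01 of 0 against PBS livers. The 2 tumor comparisons of a genotype share their tumors and are not independent of each other.

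**Figure D1:**
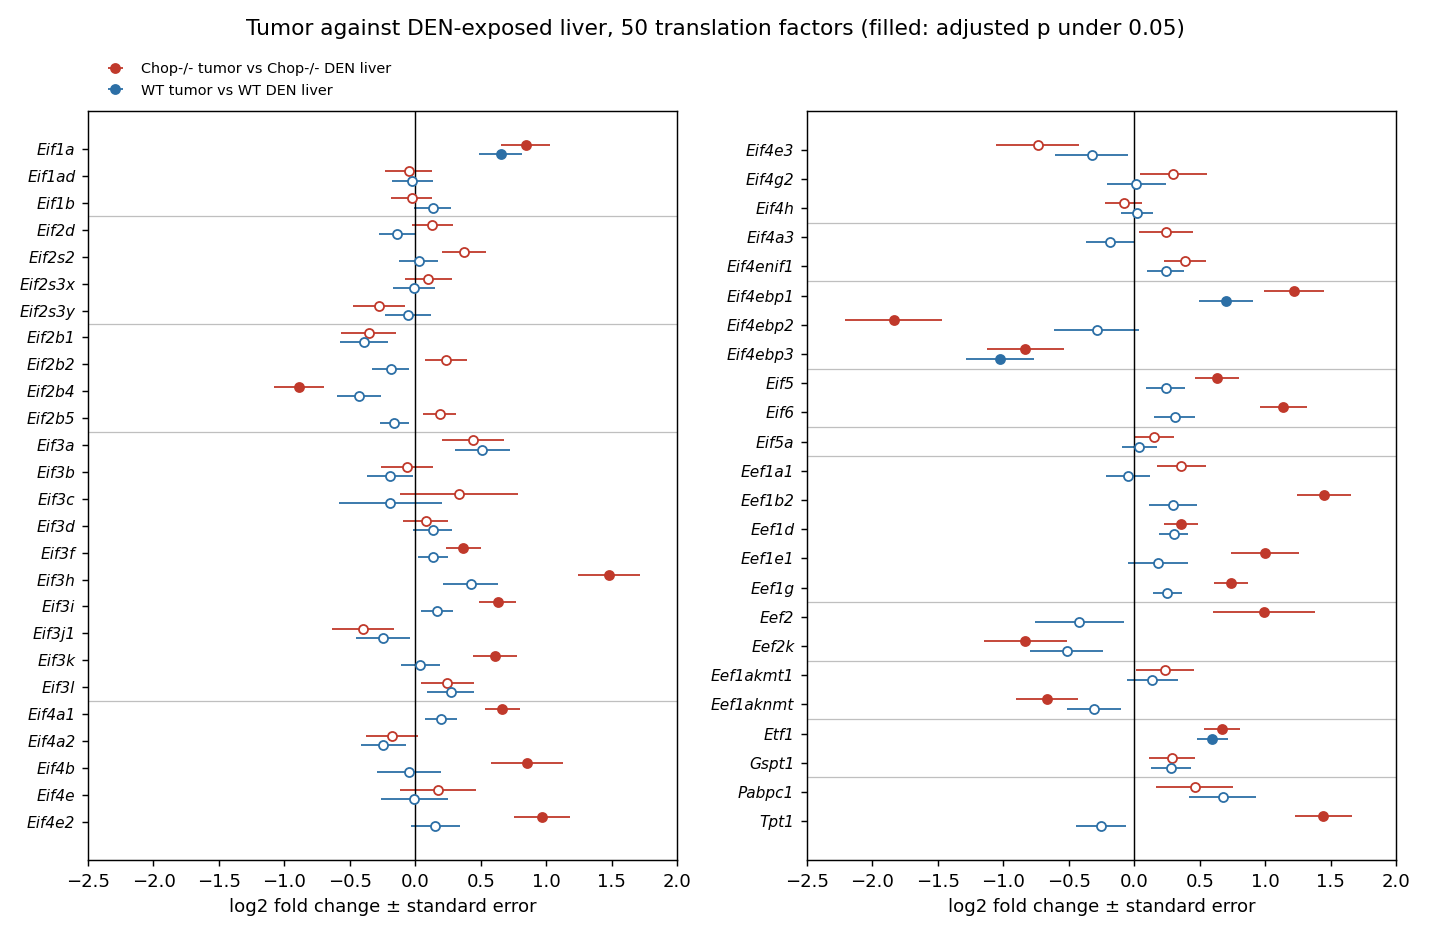
Change in log2 signal (x axis) of each of the 50 tested factors, grouped by role down the page, in tumors against DEN livers of the same genotype, with Chop-/- in red above wild-type in blue. Bars are the standard error and filled points passed an adjusted p of 0.05 in limma; 18 red points are filled on the right and 5 on the left, against 3 and 1 blue points.

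The 3 eIF4E-binding repressors parted ways. Eif4ebp1, whose protein sequesters eIF4E and whose gene is a known target of the stress factor ATF4, was higher in tumors of both genotypes. Its log2 signal was 11.10 and 12.01 in Chop-/- tumors, against a range of 9.96 to 10.69 (median 10.34) in Chop-/- DEN livers and values of 10.24, 10.31 and 10.12 in Chop-/- PBS livers. In wild-type tumors it was 10.62, 10.69 and 11.54, against 9.96 to 10.61 (median 10.25) in wild-type DEN livers and 9.84, 9.87 and 10.17 in wild-type PBS livers. No tumor overlapped the livers of its genotype. The rise over DEN livers was 1.22 in Chop-/- tumors (adjusted p = 0.000234) and 0.70 in wild-type tumors (adjusted p = 0.0155), and over PBS livers 1.33 (adjusted p = 0.000338) and 0.99 (SE 0.24, adjusted p = 0.00442). The wild-type rise over DEN livers rested on tumor B_12: without it the value was 0.40 (adjusted p = 0.2), and within array sets A and B it was 0.24 and 1.52. Its difference between Chop-/- and wild-type tumors, 0.60, did not pass the test (adjusted p = 0.14).

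Eif4ebp2, the second of these repressors, moved the other way and only passed the test in Chop-/- tumors. It read 6.37 and 6.14 in Chop-/- tumors, against 6.77 to 8.74 (median 8.26) in Chop-/- DEN livers and 8.60, 8.59 and 8.71 in Chop-/- PBS livers. The lowest of those DEN livers was B_15. Wild-type tumors read 7.62, 8.22 and 7.32, against 7.09 to 8.62 (median 8.05) in wild-type DEN livers and 8.22, 8.39 and 8.03 in wild-type PBS livers, and so overlapped their livers. In Chop-/- tumors Eif4ebp2 fell by 1.84 against DEN livers (SE 0.37, adjusted p = 0.000431). It was 5.20-fold lower than in PBS livers (adjusted p = 0.000112). It was also 2.77-fold lower in Chop-/- than in wild-type tumors (adjusted p = 0.0282), a call lost in 9 of 16 alternatives, among them array set as a fixed block (adjusted p = 0.0585), the authors' log2 values (adjusted p = 0.0632) and array weights (adjusted p = 0.123). The test of whether its tumor change differed between genotypes gave -1.55 (adjusted p = 0.0716). Eif4ebp2 also varied most of all members across the 24 arrays, with an SD of 0.73 on the log2 scale, against a median SD of 0.28 over the members and 0.34 over all genes tested.

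Eif4ebp3, the third repressor, was dim: it was detected on none of the tumor arrays of either genotype, on 4 of 7 Chop-/- and 3 of 6 wild-type DEN livers, and on none of the 3 Chop-/- and 2 of the 3 wild-type PBS livers. Where a gene was undetected in all arrays of a group only a bound can be given, set by the lowest signal detected on those arrays. It was at least 1.09-fold lower in Chop-/- tumors than in Chop-/- DEN livers (adjusted p = 0.0279), at least 1.25-fold lower in wild-type tumors than in wild-type DEN livers (adjusted p = 0.00628) and at least 1.39-fold lower in wild-type tumors than in wild-type PBS livers (adjusted p = 0.00781). All 3 calls were lost without further background correction (adjusted p = 0.207, 0.171 and 0.128), and the Chop-/- call without either tumor as well. In Chop-/- PBS livers it was also undetected, and no fold against them can be given.

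**Figure D2:**
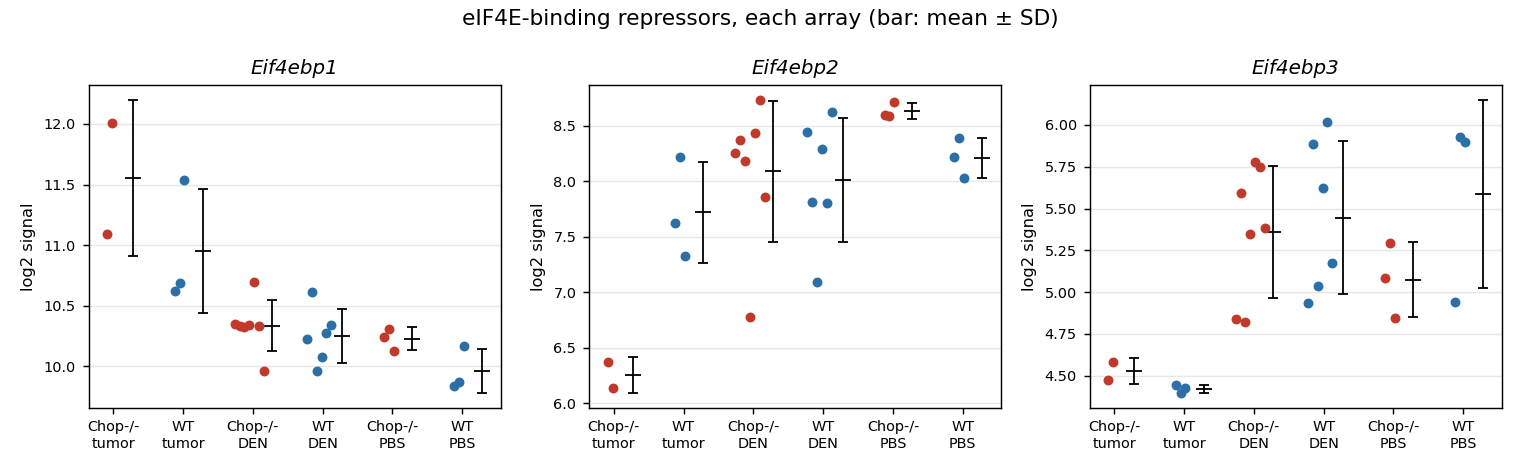
Log2 signal (y axis) of Eif4ebp1, Eif4ebp2 and Eif4ebp3 on every array of the 6 groups, with points for arrays and bars for mean ± SD. Both Chop-/- tumors lie below every other array for Eif4ebp2 (6.37 and 6.14), and tumors of both genotypes lie above their own livers for Eif4ebp1. Eif4ebp3 was undetected on all tumors and all Chop-/- PBS livers, where its values have no order.

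Among the cap complex and its helpers, 3 of 8 tested members rose in Chop-/- tumors against each liver group, and none passed the test in wild-type tumors. Of all genes 19.1% rose in Chop-/- tumors against DEN livers and 21.1% against PBS livers, and 12.1% and 10.8% in wild-type tumors. Eif4a1, the main eIF4A helicase, read 12.27 and 12.79 in Chop-/- tumors, against 11.75 to 12.08 (median 11.83) in Chop-/- DEN livers, and 11.92, 11.93 and 11.98 in wild-type tumors. It rose by 0.66 against DEN livers (adjusted p = 0.000489) and by 1.04 against PBS livers (adjusted p = 1.64e-05), and another probe of the gene gave 0.83 against DEN livers. Its paralogs did not pass the test against DEN livers: Eif4a2 gave -0.18 (another of its probes gave 0.37) and Eif4a3, an exon junction protein, gave 0.24. Eif4e2 encodes a cap-binding protein that does not bind eIF4G and can repress translation. It read 10.02 and 10.57 in Chop-/- tumors, against 9.17 to 9.49 (median 9.31) in Chop-/- DEN livers, and rose by 0.97 (adjusted p = 0.001), with 0.25 to 1.13 over its other probes. Eif4b, a helper of eIF4A, rose by 0.86 (adjusted p = 0.0163), but this rested on tumor C_24 at 7.51. Tumor B_16 at 6.24 lay within the DEN livers (5.73 to 6.25). All 3 rises against DEN livers were smaller without tumor C_24, at 0.40 for Eif4a1, 0.69 for Eif4e2 and 0.22 for Eif4b.

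The cap-binding protein itself did not move beyond the spread. Eif4e averaged 6.27 ± 0.35 in Chop-/- tumors and 6.09 ± 0.33 in Chop-/- DEN livers (SD, n = 2 and 7). Its remaining paralog Eif4e3 averaged 6.43 ± 0.70 in Chop-/- tumors and 7.16 ± 0.42 in Chop-/- DEN livers (SD, n = 2 and 7; limma adjusted p = 0.0691). Eif4g2, an eIF4G relative that lacks the eIF4E-binding site, averaged 8.47 ± 0.55 and 8.17 ± 0.25 in the same groups (limma adjusted p = 0.379). Eif4enif1, which carries eIF4E into the nucleus, rose by 0.51 in Chop-/- tumors against PBS livers and gave 0.39 against DEN livers (adjusted p = 0.0568). The rise rested on tumor C_24, without which it was 0.19 (adjusted p = 0.53).

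Of the 10 tested eIF3 subunits, 4 rose in Chop-/- tumors against each liver group and none fell, while none passed the test in wild-type tumors. The shares of all genes that rose were 19.1% and 21.1% in Chop-/- tumors (DEN, then PBS livers) and 12.1% and 10.8% in wild-type tumors. Eif3h, a subunit with an inactive deubiquitinase-like fold, read 8.24 and 8.32 in Chop-/- tumors, against 6.44 to 7.42 (median 6.87) in Chop-/- DEN livers and 6.81, 6.84 and 6.74 in Chop-/- PBS livers. Wild-type tumors read 6.76, 7.03 and 7.99, so wild-type tumor B_12 lay much nearer the Chop-/- tumors than the other two. The rise was 1.48 against DEN livers (adjusted p = 4.01e-05) and 1.49 against PBS livers (adjusted p = 0.00014). Eif3k, another subunit, read 10.45 and 10.66 in Chop-/- tumors, against 9.60 to 10.32 (median 9.94) in Chop-/- DEN livers, a rise of 0.61 (adjusted p = 0.00635). This call was lost in 3 of 21 alternatives, among them array weights (adjusted p = 0.103), and without tumor C_24 the rise was 0.50. Against PBS livers Eif3k did not pass the test. Eif3i and Eif3f rose by 0.63 and 0.37 against DEN livers, but without tumor C_24 they were at 0.43 (adjusted p = 0.083) and 0.16 (adjusted p = 0.515). Against PBS livers Eif3a, the largest scaffold subunit, rose by 0.80 (adjusted p = 0.0198), but its other probe gave -0.42, so its direction is uncertain. Eif3b, Eif3c and Eif3d gave -0.07, 0.33 and 0.08 against DEN livers and did not pass the test.

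None of the 4 tested members of the eIF2 group passed the test in any tumor comparison. Against DEN livers, 19.1% of all genes rose and 20.3% fell in Chop-/- tumors, and 12.1% and 10.2% in wild-type tumors. A count of 0 of 4 is within a few genes of these shares. Eif2s3x and Eif2s3y, the X- and Y-linked copies of the gamma subunit, gave 0.10 and -0.28 in Chop-/- tumors against DEN livers. Of the 4 tested eIF2B subunits only Eif2b4, the delta subunit of the regulatory core, moved, a count near the share of all genes that fell in Chop-/- tumors. It read 9.21 and 8.77 in Chop-/- tumors, against 9.59 to 10.13 (median 9.87) in Chop-/- DEN livers and from 9.81 to 10.11 in the 3 Chop-/- PBS livers. Every Chop-/- liver lay above both tumors, and Eif2b4 fell by 0.89 against DEN livers (adjusted p = 0.000742) and by 0.98 against PBS livers (adjusted p = 0.000892). Wild-type tumors read 9.41, 9.26 and 9.47, against 9.52 to 10.18 in wild-type DEN livers, and the difference between the tumors of the 2 genotypes did not pass the test (-0.39, adjusted p = 0.266). The catalytic subunit Eif2b5 was the steadiest member of all, with an SD of 0.13 across the 24 arrays.

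Among the start site and subunit joining factors, Eif1a, Eif5 and Eif6 rose in Chop-/- tumors against both liver groups, and Eif1b and Eif1ad did not pass the test. Eif1a, the eIF1A that helps the small subunit scan, read 10.33 and 10.63 in Chop-/- tumors, against 9.47 to 9.93 (median 9.60) in Chop-/- DEN livers. It was raised to a like level in wild-type tumors, at 10.34, 10.29 and 10.11, against 9.20 to 9.93 (median 9.60) in wild-type DEN livers. The rises were 0.84 (adjusted p = 0.00108) and 0.65 (adjusted p = 0.00627, with 0.71 in set A and 0.55 in set B). Eif1b, a paralog of Eif1, gave -0.03 and 0.13 in the same comparisons, and Eif1ad, a protein with an eIF1A-like domain, gave -0.05 and -0.02. Eif6 keeps the large subunit from joining and takes part in its maturation. It read 10.41 and 11.26 in Chop-/- tumors, against 9.39 to 9.90 (median 9.68) in Chop-/- DEN livers and 9.85, 9.71 and 9.78 in Chop-/- PBS livers, a rise of 1.14 and 1.06 (adjusted p = 3.1e-05 and 0.000257). Wild-type tumors read 9.78, 9.98 and 10.16, against 9.52 to 9.91 (median 9.60) in wild-type DEN livers, and did not pass the test. Eif5, which makes eIF2 hydrolyse GTP at the start codon, rose by 0.63 in Chop-/- tumors against DEN livers (adjusted p = 0.0046). Eif5a gave 0.15 and did not pass the test.

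Most elongation factors were higher in Chop-/- tumors: 4 of the 5 tested eEF1 genes rose against each liver group, where 19.1% (DEN) and 21.1% (PBS) of all genes rose. Eef1b2, an exchange factor that recharges eEF1A with GTP, read 12.48 and 12.69 in Chop-/- tumors, against 10.97 to 11.29 (median 11.13) in Chop-/- DEN livers and 10.95, 10.84 and 10.70 in Chop-/- PBS livers. The rise of 1.45 against DEN livers (adjusted p = 1.06e-05) and 1.76 against PBS livers (adjusted p = 5.34e-06) was shared by its 2 other probes, at 1.45 to 1.69 and 1.92 to 1.95. Wild-type tumors read 11.53, 11.25 and 12.03, against 10.88 to 11.73 in wild-type DEN livers. Eef1g, the scaffold of the exchange complex, rose by 0.74 against DEN livers (adjusted p = 8.85e-05), with readings of 13.25 and 13.50 in Chop-/- tumors, against 12.53 to 12.77 (median 12.61) in Chop-/- DEN livers. Eef1e1, named for its likeness to eEF1 although it scaffolds the tRNA synthetase complex, rose by 1.00 (adjusted p = 0.00423). Eef1d, another exchange factor, rose by 0.36 against DEN livers. This call was lost in 7 of 21 alternatives, among them array weights (adjusted p = 0.251). In wild-type tumors Eef1d rose by 0.40 against PBS livers (adjusted p = 0.0355), a call lost in 6 of 17 alternatives. Without wild-type tumor B_12 that rise was 0.27 (adjusted p = 0.214). A second Eef1d probe was detected on only 3 of the 24 arrays and gives no check of the rise in either genotype. Eef1a1, the tRNA carrier, averaged 7.47 ± 0.14 in Chop-/- tumors, 7.11 ± 0.13 in Chop-/- DEN livers and 6.88 ± 0.16 in Chop-/- PBS livers (SD, n = 2, 7 and 3), and rose only against PBS livers (0.59).

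Eef2, the translocase, read 7.86 and 8.66 in Chop-/- tumors, against 6.91 to 7.60 (median 7.32) in Chop-/- DEN livers. Its rise of 0.99 was close to the threshold (adjusted p = 0.0454) and was lost without DEN liver A_06, A_07, B_14 or B_15, or tumor C_24; other probes of the gene gave 1.02 to 1.18. Eef2k, the kinase that switches eEF2 off, was detected on neither Chop-/- tumor and on 6 of 7 Chop-/- DEN livers. It was at least 1.26-fold lower in the tumors (adjusted p = 0.0399), though the readings overlapped (4.91 and 4.57 against 4.82 to 5.88). The call was lost in 11 of 21 alternatives, among them array weights (adjusted p = 0.268) and no further background correction (adjusted p = 0.0548). Eef2k was also undetected on all 3 Chop-/- PBS livers. Eef1aknmt, a methyltransferase of eEF1A, fell by 0.67 against DEN livers (adjusted p = 0.0261).

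The termination factor eRF1, encoded by Etf1, was raised in tumors of both genotypes. It read 10.92 and 11.19 in Chop-/- tumors, against 10.27 to 10.53 (median 10.36) in Chop-/- DEN livers, and 11.02, 10.91 and 10.75 in wild-type tumors, against 10.10 to 10.47 (median 10.30) in wild-type DEN livers. Tumors and livers did not overlap in either genotype. The rise was 0.67 in Chop-/- mice (adjusted p = 0.000418) and 0.60 in wild-type mice (SE 0.12, adjusted p = 0.000847), and 0.75 and 0.44 against PBS livers (adjusted p = 0.000479 and 0.0251). Within array sets A and B the wild-type rise over DEN livers was 0.70 and 0.45, and its rise over PBS livers lost the call without tumor A_04, tumor A_08 or PBS liver B_09 (adjusted p = 0.065 to 0.105). The difference between genotypes of the rise over DEN livers was 0.07 (adjusted p = 0.854). Its partner eRF3a, encoded by Gspt1, rose by 0.60 in Chop-/- tumors against PBS livers but gave 0.29 against DEN livers (adjusted p = 0.196). Pabpc1, the main poly(A)-binding protein, rose by 0.82 in Chop-/- tumors and 0.84 in wild-type tumors against PBS livers, both close to the threshold (adjusted p = 0.0499 and 0.0487). The wild-type tumors overlapped their PBS livers (10.65, 11.22 and 12.19 against 10.40, 10.95 and 10.18), and without wild-type tumor B_12 the value was 0.43 (adjusted p = 0.347). Its other probes, detected on 3 and 4 of the 24 arrays, give no check.

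Tpt1 encodes the translationally controlled tumor protein, a TOP mRNA product that binds the eEF1 exchange complex. It read 8.04 and 8.25 in Chop-/- tumors and 6.87, 6.59 and 6.27 in wild-type tumors. Livers read 6.52 to 7.19 (median 6.58) for Chop-/- DEN, 6.35 to 7.28 (median 6.78) for wild-type DEN, 6.93, 6.39 and 6.60 for Chop-/- PBS, and 6.53, 6.94 and 6.80 for wild-type PBS. Both Chop-/- tumors thus lay above every other array, while wild-type tumors lay within the range of the livers or just below it. The rise in Chop-/- tumors was 1.44 against DEN livers (adjusted p = 1.96e-05) and 1.51 against PBS livers (adjusted p = 5.15e-05). Chop-/- tumors exceeded wild-type tumors 2.97-fold (log2 difference 1.57, SE 0.25, adjusted p = 0.00039).

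**Figure D3:**
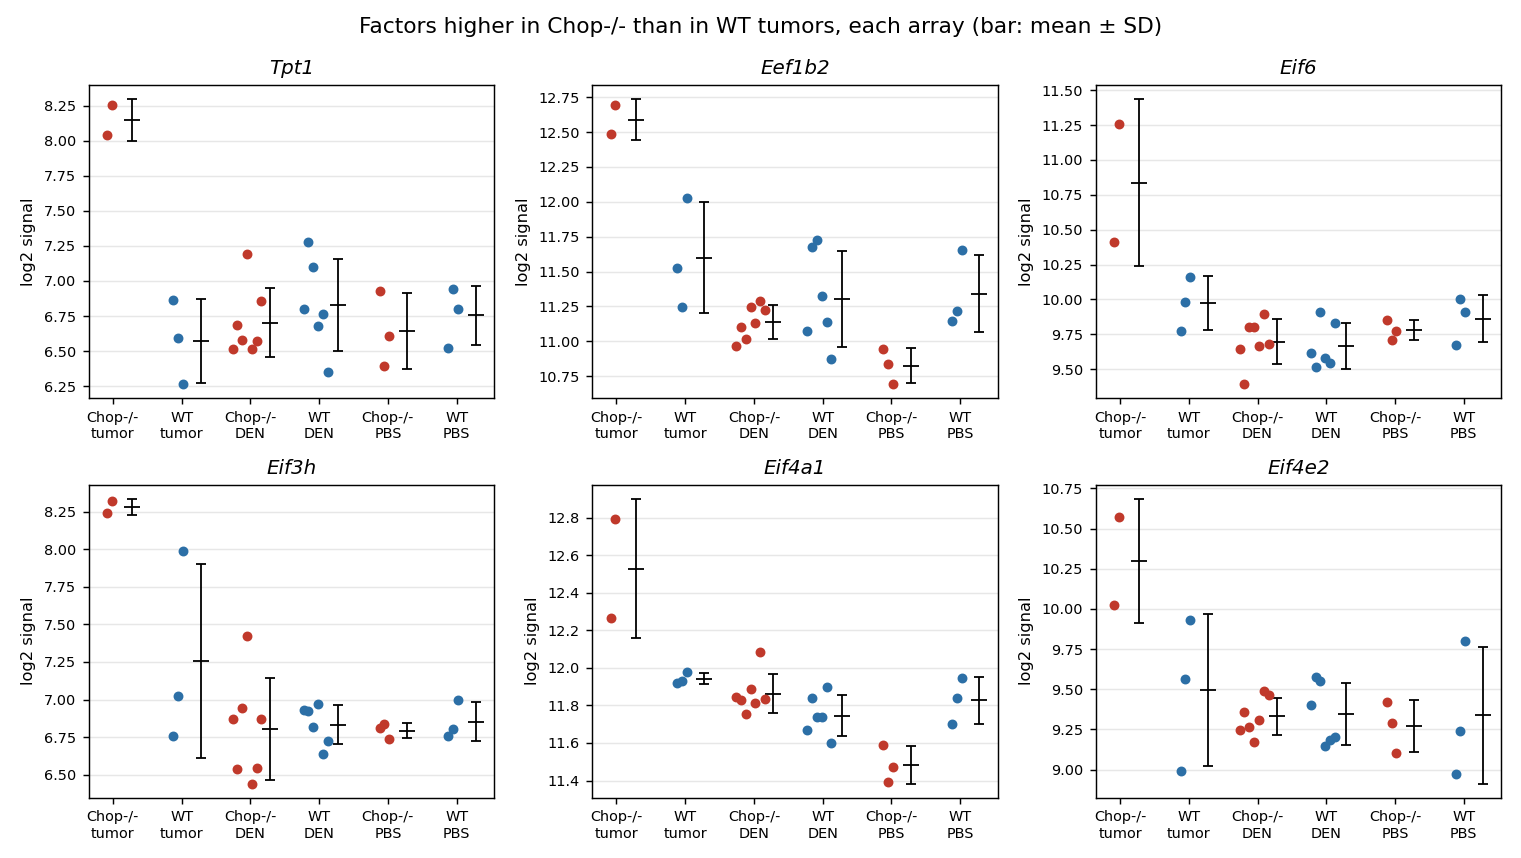
Log2 signal (y axis) of Tpt1, Eef1b2, Eif6, Eif3h, Eif4a1 and Eif4e2 on every array of the 6 groups, with points for arrays and bars for mean ± SD. Both Chop-/- tumors lie above all other arrays in each panel, and for Eif3h (7.99) and Eif4e2 (9.93) a wild-type tumor lies just below them.

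Set directly against wild-type tumors, Chop-/- tumors had 7 factors higher and 1 lower (14% and 2%), while 4.43% of all genes were higher and 6.12% lower. The median change was 0.19 over the factors and -0.03 over all genes. Besides Tpt1 and Eif4ebp2, the differences were 1.02 for Eif3h (adjusted p = 0.0183), 0.99 for Eef1b2 (adjusted p = 0.0108), 0.86 for Eif6 (adjusted p = 0.00982), 0.80 for Eif4e2 (adjusted p = 0.0368), 0.66 for Eif3k (adjusted p = 0.0301) and 0.59 for Eif4a1 (adjusted p = 0.0187). None of the 8 had overlapping groups, which adds no support. They had been picked by the test, and the share of all genes without overlap was not counted. Eef2 gave 1.27 and missed the threshold (adjusted p = 0.0659). Without Chop-/- tumor C_24, the neutrophil-rich one, only Tpt1 passed the test, and the other 7 had adjusted p-values of 0.169 to 0.462. Without wild-type tumor A_08 only Tpt1 and Eif6 passed, and without wild-type tumor A_04 the calls of Eif3h, Eif4e2 and Eif4ebp2 were lost. With the tumors fitted alone none passed (Tpt1 adjusted p = 0.236), and with array set as a fixed block Eif3k (adjusted p = 0.0768), Eif4e2 (adjusted p = 0.104) and Eif4ebp2 (adjusted p = 0.0585) lost their calls. Within array set B, the only set with tumors of both genotypes (1 of each), the differences were 1.78 for Tpt1, 0.46 for Eef1b2, 0.26 for Eif3h, 0.25 for Eif6, 0.09 for Eif4e2, 0.73 for Eif3k, 0.29 for Eif4a1 and -0.96 for Eif4ebp2, with no replicate.

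Whether the change from DEN liver to tumor itself differed between genotypes was tested as an interaction. It passed for 3 factors, all with the larger rise in Chop-/- mice, while 1.64% of all genes passed in that direction and 3.05% in the other. The differences of changes were 1.70 for Tpt1 (SE 0.29, adjusted p = 0.00198), 1.15 for Eef1b2 (SE 0.28, adjusted p = 0.0204) and 0.83 for Eif6 (SE 0.24, adjusted p = 0.0468). Eif6 lost its call in 21 of 30 alternatives, most of them single arrays left out, and among them array set as a fixed block (adjusted p = 0.108) or a random block (adjusted p = 0.0507). Eef1b2 lost its call without wild-type tumor A_08 (adjusted p = 0.0759). Without tumor C_24 Tpt1 alone passed, with Eef1b2 at 1.05 (adjusted p = 0.189) and Eif6 at 0.41 (adjusted p = 0.537). Eif3h, at 1.05, fell just short with all arrays (adjusted p = 0.0561).

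For each member listed next, both Chop-/- tumors moved in the same direction, C_24 further than B_16. This did not hold for every rise: Eif4b in B_16 lay within the range of the DEN livers. Against Chop-/- DEN livers of the same array set, tumors B_16 and C_24 gave 1.16 and 1.60 for Tpt1, 1.35 and 1.48 for Eef1b2, 1.06 and 1.70 for Eif3h, 0.61 and 1.51 for Eif6, 0.44 and 0.88 for Eif4a1, and -1.11 and -2.21 for Eif4ebp2. The median over the 50 factors was 0.21 in set B and 0.27 in set C. Leaving out C_24 left 10 of the 23 members called against DEN livers with their call, and 13 of 24 against PBS livers. Eef2 was then at 0.59 (adjusted p = 0.446), Eif4b at 0.22 (adjusted p = 0.663) and Eef1e1 at 0.54 (adjusted p = 0.252). Leaving out B_16 kept 19 of 23 and 19 of 24.

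The tested members with a known TOP mRNA were Eef1a1, Eef1b2, Eef1d, Eef1g, Eef2, Eif2s3x, Eif3a, Eif3f, Eif3h, Eif3k, Eif3l, Eif4b, Pabpc1 and Tpt1. Of these 14, 9 rose in Chop-/- tumors against DEN livers (median 0.53), where 19.1% of all genes rose, and 10 against PBS livers (median 0.79), where 21.1% did, and none fell. Eif3a, whose 2 probes disagree in sign against PBS livers, is among those 10. Several of the 9 depended on tumor C_24. Without it the change against DEN livers was 0.16 for Eif3f, 0.22 for Eif4b, 0.50 for Eif3k and 0.59 for Eef2. Eef1b2, Eef1g, Eif3h and Tpt1 kept their call against DEN livers under every alternative. In wild-type tumors none of the 14 passed the test against DEN livers (median 0.19), where 12.1% of all genes rose. Against wild-type PBS livers Eef1d (0.40) and Pabpc1 (0.84) of this list rose, where 10.8% of all genes rose. This list, like the others below, was drawn up with earlier results of these data known and is no independent evidence of a direction. The 56 cytosolic ribosomal protein genes, whose mRNAs are of the same class, went further: 50 rose in Chop-/- tumors against DEN livers (median 0.85), and 11 in wild-type tumors (median 0.28). Between tumors, 25 ribosomal protein genes (median 0.59) and 4 of the 14 TOP members (median 0.44) were higher in Chop-/- mice, and none of either was lower. Of all genes 4.43% were higher and 6.12% lower there. The median difference from the wild-type PBS mean, taken over the ribosomal protein genes of an array, was 0.96 in C_24 and 0.74 in B_16, against -0.20 to 0.35 on all other arrays, and that over the members was 0.34 and 0.18, against -0.13 to 0.10.

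**Figure D4:**
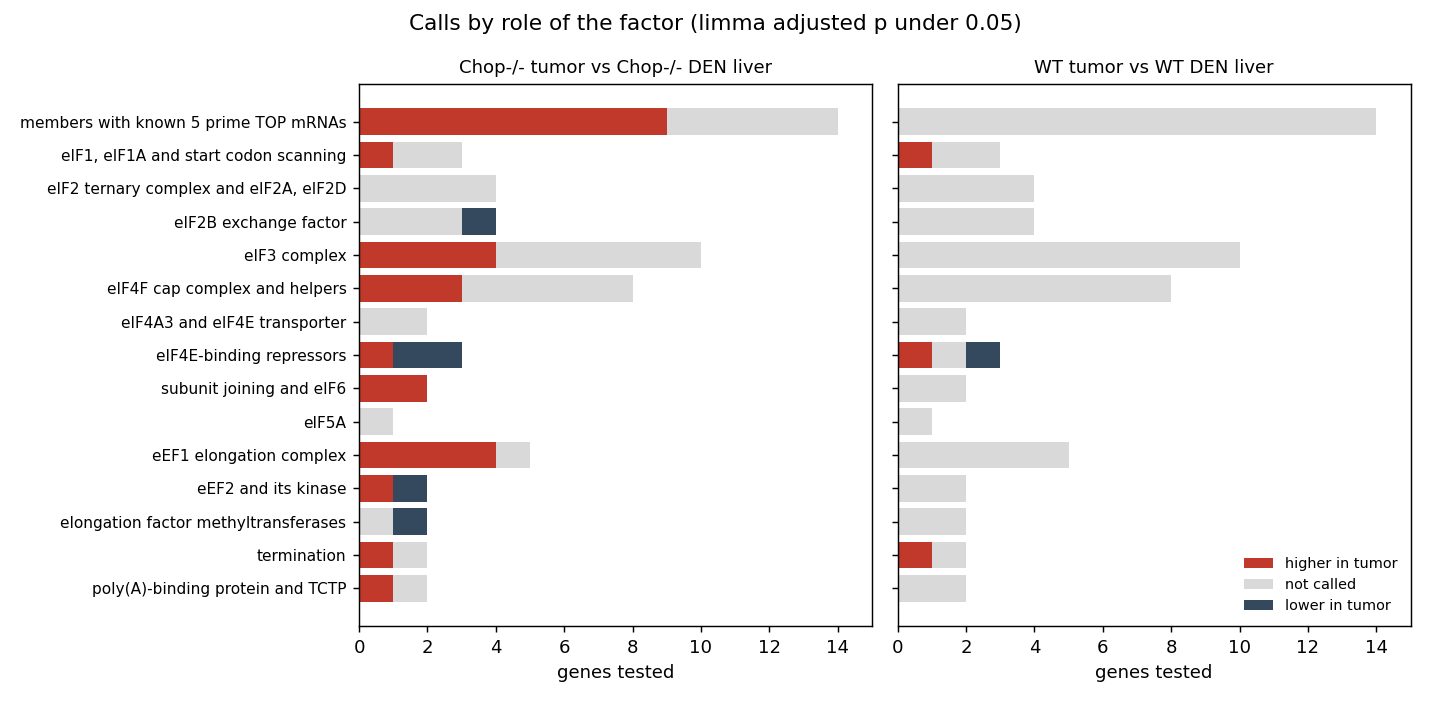
Number of tested members (x axis) that rose, did not pass the test or fell in tumors against DEN livers, by role down the page, with Chop-/- mice in the left panel and wild-type mice in the right panel. In the left panel eIF3 (4 of 10), eEF1 (4 of 5) and the cap complex (3 of 8) hold most of the rises, and in the right panel these groups hold none. Of all genes 19.1% rose in the left comparison and 12.1% in the right.

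Regulators of these factors moved in tumors too. Across all genes 19.1% rose and 20.3% fell in Chop-/- tumors against DEN livers, and 12.1% rose and 10.2% fell in wild-type tumors. Of 12 tested genes of the mTORC1 pathway and its branch to eIF4E and eIF4A, 1 rose and 5 fell in Chop-/- tumors, and 1 rose and none fell in wild-type tumors, a wild-type count near the share of all genes. Ddit4, an inhibitor of mTORC1 that stress induces, rose by 3.05 in Chop-/- tumors (adjusted p = 1.45e-05) and 3.14 in wild-type tumors (adjusted p = 7.8e-06). The 2 Chop-/- tumors were far apart, at 7.78 and 10.53, against a mean of 6.11 ± 0.48 in Chop-/- DEN livers (SD, n = 7), while the 3 wild-type tumors lay between 8.89 and 9.09. Deptor, which binds and inhibits mTOR, fell by 1.60 in Chop-/- tumors (adjusted p = 2.19e-05), and Pdcd4, which blocks eIF4A, by 1.53 (adjusted p = 0.00305), against -0.31 and -0.02 in wild-type tumors, which did not pass the test. The other 3 that fell in Chop-/- tumors were Tsc2 (-0.75), Mlst8 (-0.71) and Akt1s1 (-0.64). Another 8 genes were those of eIF2 kinases, phosphatase subunits and their regulators (Dnajc3, Impact and Nck1). Among them Eif2ak1, the kinase that senses heme, fell in tumors of both genotypes (-0.999 in Chop-/- and -0.48 in wild-type). Eif2ak2, the kinase that senses double-stranded RNA, rose in both (0.91 and 0.63). Eif2ak3, the kinase of the endoplasmic reticulum, rose by 0.94 in wild-type tumors (adjusted p = 0.00633).

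Of 9 mitochondrial translation factors, 3 fell in Chop-/- tumors against DEN livers and 2 in wild-type tumors and none rose, counts within a few genes of the shares of all genes that fell (20.3% and 10.2%). Gfm2, the mitochondrial ribosome-recycling factor, fell by 1.25 in Chop-/- tumors (adjusted p = 2.11e-05) and by 0.54 in wild-type tumors (adjusted p = 0.0231). Of 15 other cytosolic initiation, recycling and poly(A) factors outside the symbol rule, 1 rose (Paip2, a repressor of the poly(A)-binding protein, by 0.68) and 1 fell (Abcf1, by 0.49) in Chop-/- tumors, and none passed in wild-type tumors, which is below the shares of all genes. Cell cycle genes rose in both genotypes, 6 of 8 in Chop-/- and 7 of 8 in wild-type tumors, as did 5 of 8 stress response markers in each, where 19.1% and 12.1% of all genes rose.

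No factor passed the test between livers. Chop-/- and wild-type PBS livers had 0 of 50 called (of all genes 0% were higher and 0.0223% lower in Chop-/-), with 1 higher and 6 lower at an unadjusted p under 0.05 (of all genes 5.65% higher and 4.84% lower). The 1 higher was Eef1aknmt (0.50), and the 6 lower were Eif4e3 (-0.86), Eef1e1 (-0.62), Eef1akmt1 (-0.58), Eef1b2 (-0.51), Gspt1 (-0.42) and Eif4a1 (-0.34), with adjusted p-values of 0.415 to 0.47 over these 7. Chop-/- and wild-type DEN livers likewise had 0 called (0% higher and 0.0223% lower of all genes) and 1 higher at an unadjusted p under 0.05, Eif1b (0.27, adjusted p = 1), where 1.03% of all genes were higher and 0.658% lower. DEN livers against PBS livers had 0 called in Chop-/- mice (0.0223% of all genes higher, 0% lower) and 0 in wild-type mice (0% and 0%). The members with an unadjusted p under 0.05 were Eif4a1 in Chop-/- mice (0.38, adjusted p = 0.501; of all genes 4.13% were higher and 3.79% lower) and Eef1akmt1 in wild-type mice (-0.61, adjusted p = 1; of all genes 1.55% were higher and 1.19% lower).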

How the data were processed

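Total RNA from each tumor or liver was hybridised to Illumina MouseRef-8 v2.0 BeadChips, 1 array per sample. The deposited signals are intensities made by the authors with GenomeStudio 2011.1, per the submitters' processing notes; they had been background subtracted and quantile normalised before deposit (26.9% were negative, from -23.07 to 37048.3), so values of dim probes are less certain than those of bright ones. A deposited detection p-value accompanied each signal. The authors' log2 values, also deposited, equal log2 of the signal plus about 104, which shrinks the changes of dim probes, and were used as an alternative. Another 48 columns of values were not used. Columns were assigned to groups by array name.

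Here signals were corrected with neqc (normexp from detection p-values, offset 16, quantile) in limma 3.58.1 under R 4.3.3. A probe was kept when detected (p under 0.01) on at least 2 arrays, and the brightest probe stood for its gene, leaving 8969 genes. One model with the 6 groups was fitted over 24 arrays (lmFit, eBayes), with p-values adjusted by Benjamini-Hochberg over all 8969, and was tested on simulated data. The number of arrays limits the precision, above all in the 2 Chop-/- tumors. Named members are up to 8 per comparison and direction with the largest called change and no overlap between groups, the paralog sets, key catalytic or substrate subunits, and members undetected in a group; members that overlap or nearly pass are named where a group is described. The members, roles and gene lists were chosen with earlier results of these data known. Promoters were read from RefSeq (GRCm38.p6). Alternatives covered background, normalisation, value table, filters, probe summary, samples in the fit, array set, array weights, the replicate number and each array left out. All started from values that the authors had already background subtracted and quantile normalised. They therefore cannot show how the results depend on that earlier step.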

Additional observations from a re-analysis of the deposited data

Results flagged for a closer look

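In the DEN livers, 4 of 100 gene and group pairs held an array whose gap to its nearest neighbour was large for the range of its group, where chance gives about 1 in 20. Eef1akmt1 read 6.76 in wild-type DEN liver A_03, against 7.46 to 7.72 in the others. Eif3b read 7.76 in wild-type DEN liver C_19, against 7.35 to 7.50. Eif3l read 10.71 in Chop-/- DEN liver B_14, against 10.98 to 11.11, and Eif4a1 read 12.08 in Chop-/- DEN liver C_22, against 11.75 to 11.89. The change from DEN liver to tumor differed between genotypes by the interaction test in limma for 3 members, with a larger rise in Chop-/- mice: by 1.70 for Tpt1, 1.15 for Eef1b2 and 0.83 for Eif6 on the log2 scale, of which Tpt1 alone passed without Chop-/- tumor C_24.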

How the results depend on the processing

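Over 67 called member results, 0 reversed in sign. Of the recomputed values, 386 of 487 kept their call when a single array was left out, and 671 of 787 under the other alternatives. Those others changed a setting or left out C_24 and the DEN liver B_15 together. Under every alternative run, the call held for 13 of 24 members in Chop-/- tumors against PBS livers, 7 of 23 against DEN livers (Eef1b2, Eef1g, Eif3h, Eif4ebp2, Eif6, Etf1 and Tpt1), 2 of 4 in wild-type tumors against DEN livers (Eif1a and Etf1), 0 of 5 against PBS livers, 0 of 8 between tumors and 1 of 3 in the interaction (Tpt1); between tumors Tpt1 lost its call only when the tumors were fitted alone. The 4 liver comparisons gave 0 under every alternative. The cause of the following shifts was not tested.

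In wild-type tumors against PBS livers, 5 members became 3 without further background correction and 1 with only the groups compared. Against DEN livers, 4 became 7 with the authors' log2 values and 12 with array weights. In Chop-/- tumors, array weights, which were lowest for both Chop-/- tumors (0.296 each), gave 15 instead of 24 against PBS livers and 11 instead of 23 against DEN livers. Leaving out C_24 and the DEN liver B_15 together, chosen after seeing the data, gave 13, 12 and, for the interaction, 1 instead of 3. Between tumors, 8 became 0 with only the groups compared, 5 with array set as a fixed block and 2 with array weights. The authors' log2 values gave 5 for the interaction. Leaving out 1 array gave 3 to 5 for wild-type tumors against PBS livers, 4 to 7 against DEN livers, 13 to 21 for Chop-/- tumors against PBS livers, 12 to 23 against DEN livers, 1 to 18 between tumors (1 without C_24, 2 without wild-type tumor A_08, 5 without A_04 and 18 without B_16) and 1 to 12 for the interaction (1 without C_24 or A_08, 5 without B_15, 7 without B_12 and 12 without B_16). With 1 Chop-/- tumor left, it was assumed to vary like the other groups.

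Correlations between same-numbered samples, each taken against its group mean, ran from -0.19 to 0.32. With so few pairs in each comparison, they cannot tell whether the numbers pair the samples. With the replicate number as a block, on the authors' log2 values, 6 and 4 members were called in wild-type tumors (PBS, then DEN livers), 25 and 20 in Chop-/- tumors, 8 between tumors, 3 in the interaction and 0 in each liver comparison, against 7, 7, 26, 23, 10, 5 and 0 without the block. No arrays were near-duplicates, so averaging such arrays was not run. Signals near background limit Eif4ebp3 and Eef2k to bounds.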
